A study of Mus musculus with 16 samples.

Results

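The genes described here are 10 that mark enteroendocrine cells, the hormone-secreting cells of the gut epithelium: the granins Chga, Chgb and Scg3, the granule chaperone gene Scg5, the vesicle genes Syp and Cplx2, the calcium sensor gene Scgn, the serotonin enzyme gene Tph1 and the transcription factors Neurog3 and Neurod1. They were taken by symbol from the count tables of 3 experiments, which list 52636 genes for crypts, 54532 for KO-IEC organoids and 52636 for KO-CAG organoids, and all 10 were in each table. The rule for taking them used the symbol alone, but the 10 symbols were chosen with earlier results of these data known. RNA-seq was carried out on small intestine of C57BL/6 mice with or without Cul4b, the X-linked gene for the scaffold of a cullin-RING ubiquitin ligase. KO-IEC denotes pVillin-Cre; Cul4b fn/Y, in which the villin promoter drives Cre in the intestinal epithelium from development onward. KO-CAG denotes CAG-CreERT2; Cul4b fn/Y organoids, in which a ubiquitous promoter drives a Cre that acts after 4-hydroxytamoxifen. Crypts, the epithelial pockets that hold the stem cells, gave 4 WT and 4 KO-IEC libraries, and organoids, which are epithelial cultures grown from crypts, gave 2 WT and 2 KO-IEC libraries in one experiment and 2 WT and 2 KO-CAG libraries in another. Most mice of the study were 8 to 16 weeks old, and the labels give no age per library. Whether the WT organoids of the KO-CAG experiment carried CreERT2 or received 4-hydroxytamoxifen is not given in the sources used here. The study's methods call the libraries of a group biological replicates, but the labels do not say which came from separate animals or cultures, so the p-values measure the spread between these libraries, which may in part be technical.

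Enteroendocrine cells arise from secretory progenitors of the crypt in which Neurog3 is switched on for a short time, after which Neurod1 and other factors carry the programme forward. Mature cells store peptide hormones or serotonin in dense-core granules, whose matrix is built by granins, and release them by calcium-triggered exocytosis. They are a rare cell type of the epithelium, so their genes contribute few of the reads of a whole crypt or organoid.

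Because the 10 genes moved together in the KO-CAG organoids, the 250 bases before the RefSeq transcription start were searched on GRCm38.p6 for motifs of factors known in neuroendocrine cells. The letters searched were CANNTG, the E-box core bound by basic helix-loop-helix factors such as Neurog3 and Neurod1, its form CAGATG, which overlaps CANNTG by construction, and TGACGT, the core of the cyclic AMP response element, each on both strands. All 10 genes had a promoter in the table, and Tph1 had a pair of them. CANNTG was present for 6 of the 10 genes, against 66.2% of 32851 promoters of that length. CAGATG was present for 0 of the 10 and in 14.4% of all promoters, and TGACGT for 3 of the 10 (Chga, Chgb and Scg5) and in 6.47% of all. The RefSeq starts are not always those of the count tables: the RefSeq start lies 68793 bases upstream of the table's for Cplx2 and 364, 109 and 115 bases downstream of it for Chgb, Syp and Neurod1, and the windows of these 4 genes are counted here too. A match is a description of the letters only. The windows of Chga, of Scgn and of Neurog3 are printed below, 5′ to 3′ on the strand of the gene, as a granin with both motifs, a gene with neither and the factor gene with an E-box core alone, with matches to CANNTG or TGACGT in capitals. The window of Chga lies at chr12:102554691-102554940 on the plus strand, that of Scgn at chr13:23991215-23991464 on the minus strand and that of Neurog3 at chr10:62132840-62133089 on the plus strand.
Chga: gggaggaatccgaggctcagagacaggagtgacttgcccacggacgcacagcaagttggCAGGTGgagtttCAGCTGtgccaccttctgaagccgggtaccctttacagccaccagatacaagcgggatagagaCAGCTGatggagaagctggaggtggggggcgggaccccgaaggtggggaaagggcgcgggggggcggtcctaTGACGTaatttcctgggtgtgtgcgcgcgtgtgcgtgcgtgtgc
Scgn: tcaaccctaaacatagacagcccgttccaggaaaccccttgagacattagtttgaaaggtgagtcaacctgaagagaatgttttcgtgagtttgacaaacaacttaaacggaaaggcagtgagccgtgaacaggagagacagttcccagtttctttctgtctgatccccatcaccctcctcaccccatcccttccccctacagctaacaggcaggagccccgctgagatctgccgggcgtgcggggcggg
Neurog3: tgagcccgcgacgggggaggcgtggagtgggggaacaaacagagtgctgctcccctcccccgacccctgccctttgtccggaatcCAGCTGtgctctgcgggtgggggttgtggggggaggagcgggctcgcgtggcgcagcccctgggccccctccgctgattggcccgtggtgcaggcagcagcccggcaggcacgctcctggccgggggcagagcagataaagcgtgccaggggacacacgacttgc

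The deposited counts summed to 7348191 to 16881395 per library, and 3 counts, taken as the floor, corresponded to 0.178 to 0.408 CPM, read counts scaled for library size. Cul4b checked the labels: its level was 31.6, 33.1, 38.2 and 32.2 CPM in WT crypts and 1.69, 0.990, 0.846 and 2.20 CPM in KO-IEC crypts, and its log2 fold change was -4.56 in crypts, -5.50 in organoids with KO-IEC and -4.02 in those with KO-CAG. The crypt libraries differed in mitochondrial ribosomal RNA, in part along with genotype. It was under 100 CPM in WT 1 and KO 1, 2 and 3, between 100 and 2000 CPM in WT 4 and KO 4, and above 2000 CPM in WT 2 and WT 3, where no KO library lies, so the crypt results are also given within the first and the second of these classes. The KO-IEC organoid libraries differed most from each other: the biological coefficient of variation fitted by edgeR was 0.280 in that experiment, 0.231 in crypts and 0.0815 in KO-CAG organoids. Markers of epithelium were high in all libraries (summed level 4821 to 9192 CPM), while immune markers summed to 11.9 to 58.6 CPM in crypts and to at most 1.63 CPM in organoids.

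The members called after the deletion were not the same in the 3 experiments. In tests of the KO effect between experiments, a difference was called only between KO-CAG organoids and crypts, for 3 of the 10 genes. In KO-CAG organoids all 10 were higher in KO, by 1.57-fold to 3.51-fold. In crypts 3 of the 9 that had enough counts to be tested were lower in KO (Syp, Cplx2 and Scgn), and in KO-IEC organoids none of the 10 passed the test. The main granins Chga and Chgb, by far the most abundant of the 10, had log2 fold changes of -0.03 and -0.21 in crypts, neither past the test, and were higher in KO in KO-CAG organoids. In bulk RNA, fewer cells of a type and less RNA per cell cannot be told apart.

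A gene was called at an adjusted p under 0.05 in the quasi-likelihood test of edgeR, adjusted by Benjamini and Hochberg's method over every gene tested in that experiment. In crypts, 3 of 9 tested members were called, all lower, where 2.66% of the 13427 tested genes were called lower and 6.96% in either direction. Scg5, at 4 to 13 counts per library, was the member removed by the filter on low counts. The same 3 members had no overlap between the genotypes, with KO below WT in every library, as had 8.79% of all tested genes. The median log2 fold change of the 9 was -0.25, and that of all tested genes was -0.01. In KO-IEC organoids 0 of 10 were called by edgeR, 0 had an unadjusted p under 0.05, and DESeq2 also called 0. In that experiment 0.00717% of genes were called, which is Cul4b alone, while an unadjusted p under 0.05 was reached by 650 of the 13938 tested. In KO-CAG organoids 10 of 10 were called higher, where 18.1% of 13598 genes were called higher and 31.5% in either direction. Of the 10, 7 also passed a fold of 2, as did 6.36% of genes in the higher direction. The libraries of the genotypes did not overlap for any of the 10, with KO higher, which held for 35.5% of genes. The median log2 fold change of the 10 was 1.25 and that of all tested genes 0.00. With all 16 libraries in 1 fit, which applies the wider spread of the other experiments to these 4, edgeR called 4 of the 10 (Chga, Scg3, Syp and Scgn) and 3.06% of all genes. DESeq2, on the 4 libraries of this experiment alone, called 8 of the 10 and 4.82% of the genes in its test. That test did not use edgeR's filter on low counts, so its share is not directly comparable with those of edgeR.

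**Figure D1:**
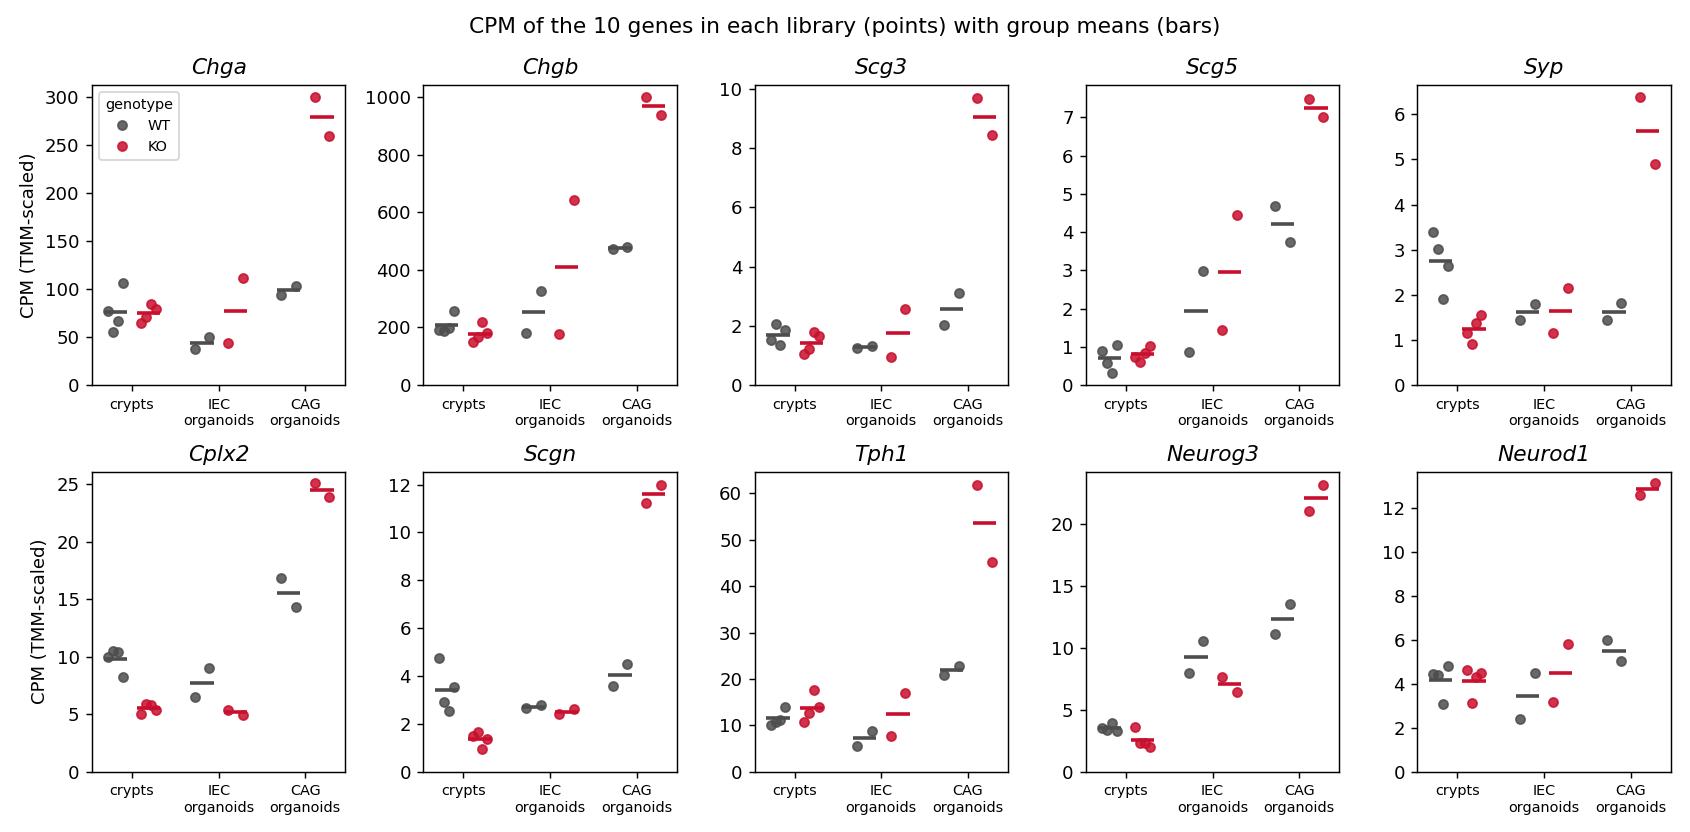
TMM-scaled CPM (y axis, linear, from 0) of each of the 10 genes in the 16 libraries, as points coloured by genotype, with bars at group means, for crypts (4 WT and 4 KO), KO-IEC organoids and KO-CAG organoids (2 and 2 each). Both KO-CAG libraries lie above both WT libraries for all 10 genes, and the 4 KO-IEC crypt libraries lie below all 4 WT libraries for Syp, Cplx2 and Scgn.

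Chga and Chgb encode chromogranin A and chromogranin B, acidic proteins that condense in the matrix of secretory granules, and Chga is the usual marker of the whole enteroendocrine lineage. Chga lies at chr12:102554969-102565028 on the plus strand and Chgb at chr2:132781278-132795079 on the plus strand, positions that the tables share with GRCm38. In crypts Chga stood at 77.4, 54.6, 67.1 and 106 CPM in WT 1 to 4 and at 65.0, 71.0, 83.8 and 78.9 CPM in KO-IEC 1 to 4. The KO libraries fell inside the range of the WT libraries, and the log2 fold change was -0.03 (SE 0.19, 95% interval -0.45 to 0.39, edgeR adjusted p = 0.924). In KO-IEC organoids the levels of Chga were 38 and 49.9 CPM in WT and 43.4 and 111 CPM in KO, so 1 KO library was within the WT range and the other well above it. The log2 fold change there was 0.81 (SE 0.47, edgeR adjusted p = 0.856). In KO-CAG organoids Chga was 93.8 and 103 CPM in WT and 299 and 259 CPM in KO, a rise of 2.84-fold (log2 1.5, SE 0.10, edgeR adjusted p = 8.75e-06), and both KO libraries stood far above both WT libraries.

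Chgb was the most abundant of the 10 in every group. In crypts it was at 189.7, 187, 197 and 257 CPM in WT 1 to 4 and at 151, 166, 218 and 180.5 CPM in KO-IEC 1 to 4. WT 4 stood above the other WT libraries, KO 3 was the only KO library among the WT values, and the log2 fold change of -0.21 (SE 0.15, 95% interval -0.55 to 0.12) did not pass the test (edgeR adjusted p = 0.338). In KO-IEC organoids Chgb was at 179.7 and 325 CPM in WT and at 177 and 642 CPM in KO, and its KO libraries differed from each other by 3.62-fold, the widest gap between KO libraries among the 10 genes. The log2 fold change was 0.70 (SE 0.65, edgeR adjusted p = 0.856). In KO-CAG organoids the levels were 472 and 480.3 CPM in WT and 1000.4 and 939 CPM in KO, 2.04-fold higher (log2 1.03, SE 0.09, edgeR adjusted p = 4.1e-05), with a gap between the genotypes many times that between libraries of a genotype.

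Scg3, secretogranin III, is a granin that tethers chromogranin A to the granule membrane, and Scg5 encodes 7B2, the chaperone of the prohormone convertase PC2. Scg3 lies at chr9:75643189-75684056 and Scg5 at chr2:113776362-113829121, both on the minus strand. Both were low: Scg3 had 10 to 23 counts per crypt library, at 1.52, 2.07, 1.36 and 1.84 CPM in WT and 1.05, 1.22, 1.80 and 1.65 CPM in KO-IEC crypts. Their ranges overlapped, and the log2 fold change was -0.25 (SE 0.27, edgeR adjusted p = 0.551). Scg5 ran from 0.319 to 1.04 CPM in WT crypts and from 0.609 to 1.01 CPM in KO-IEC crypts, a difference not detectable at this depth (exact permutation test, two-sided, p = 0.571, n = 4 and 4).

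In KO-IEC organoids Scg3 was at 1.27 and 1.33 CPM in WT and at 0.963 and 2.56 CPM in KO, one KO library below and the other above both WT libraries. Scg5 was at 0.863 and 2.98 CPM in WT and at 1.44 and 4.45 CPM in KO, with replicate 2 the higher library of either genotype. The log2 fold changes were 0.44 for Scg3 and 0.62 for Scg5, with SEs of 0.60 and 0.82 (edgeR adjusted p = 0.88 and 0.877). In KO-CAG organoids Scg3 rose from 2.04 and 3.1 CPM in WT to 9.70 and 8.44 CPM in KO, the largest change of the 10 (3.51-fold, log2 1.81, SE 0.29, edgeR adjusted p = 0.00112). Scg5 went from 4.69 and 3.75 CPM to 7.49 and 7 CPM, 1.71-fold (log2 0.77, SE 0.25, edgeR adjusted p = 0.0419), and was the member nearest the threshold. Leaving out any 1 of the 4 libraries ended the call of Scg5 (adjusted p 0.0675 to 0.218), as did DESeq2 (adjusted p = 0.256).

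Syp and Cplx2 belong to the release machinery. Syp encodes synaptophysin, a membrane protein of small synaptic-like vesicles, and lies at chrX:7638471-7653256 on the plus strand. Cplx2 encodes complexin 2, which binds the assembled SNARE complex before fusion, and lies at chr13:54371349-54383917 on the plus strand. Syp stood at 3.39, 3.01, 1.91 and 2.65 CPM in WT crypts and at 1.16, 0.914, 1.38 and 1.56 CPM in KO-IEC crypts, where it had 11 to 17 counts per library. The highest KO library was below the lowest WT library, and the level was 2.19-fold lower in KO (log2 -1.13, SE 0.28, 95% interval -1.75 to -0.51, edgeR adjusted p = 0.0475). Cplx2 stood at 10, 10.5, 10.4 and 8.26 CPM in WT crypts and at 5.06, 5.86, 5.82 and 5.41 CPM in KO-IEC crypts. These groups were the most tightly spaced of the called genes (9.81 ± 1.06 and 5.54 ± 0.378 CPM, SD, n = 4), with a log2 fold change of -0.82 (SE 0.15, 95% interval -1.16 to -0.49, edgeR adjusted p = 0.0383).

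In KO-IEC organoids Syp was at 1.44 and 1.79 CPM in WT and at 1.14 and 2.16 CPM in KO, so the KO libraries lay on either side of the WT pair (log2 0.03, SE 0.50, edgeR adjusted p = 0.991). Cplx2 was at 6.50 and 9.01 CPM in WT and at 5.42 and 4.92 CPM in KO. Both KO libraries of Cplx2 were below both WT libraries, but the log2 fold change of -0.58 had an interval from -1.41 to 0.24 (SE 0.32, edgeR adjusted p = 0.856). In KO-CAG organoids Syp was at 1.44 and 1.81 CPM in WT, or 12 and 14 counts, and at 6.38 and 4.89 CPM in KO, 3.42-fold higher (log2 1.77, SE 0.33, edgeR adjusted p = 0.00289). Cplx2 was at 16.8 and 14.3 CPM in WT and at 25.1 and 23.9 CPM in KO, 1.57-fold higher (log2 0.65, SE 0.15, edgeR adjusted p = 0.00811), the smallest of the 10 changes. Without WT library 2 of that experiment, the edgeR adjusted p of Cplx2 was 0.072, and with DESeq2 it was 0.0543.

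Scgn encodes secretagogin, a calcium-binding protein of neuroendocrine cells that takes part in granule release, and lies at chr13:23953456-23991214 on the minus strand. In crypts it was at 4.73, 2.92, 2.55 and 3.53 CPM in WT and at 1.48, 1.68, 0.952 and 1.38 CPM in KO-IEC, where it had 9 to 22 counts per library. All 4 KO libraries were below all 4 WT libraries, and the level was 2.47-fold lower in KO, the largest of the crypt changes (log2 -1.31, SE 0.28, 95% interval -1.94 to -0.68, edgeR adjusted p = 0.0424). In KO-IEC organoids the values of 2.65 and 2.78 CPM in WT and 2.41 and 2.63 CPM in KO were close to each other (log2 -0.11, SE 0.36, edgeR adjusted p = 0.955). In KO-CAG organoids Scgn was at 3.60 and 4.52 CPM in WT and at 11.2 and 12.0 CPM in KO, 2.86-fold higher (log2 1.52, SE 0.23, edgeR adjusted p = 0.000842), with no overlap.

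The exact permutation test gave p = 0.0286 for Syp, Cplx2 and Scgn in crypts (two-sided, unadjusted, n = 4 and 4), the smallest p that this design allows. It follows from the lack of overlap between the genotypes and adds nothing to it. No overlap in either direction held for 17.5% of tested genes. Within the crypt libraries low in mitochondrial ribosomal RNA (1 WT and 3 KO) the log2 differences were -1.44 for Syp, -0.83 for Cplx2 and -1.70 for Scgn. Within the middle class (1 WT and 1 KO) they were -0.70, -0.59 and -1.25. For the members not called in crypts, the log2 differences in the low and the middle class were -0.09 and -0.43 for Chga, -0.11 and -0.51 for Chgb, -0.17 and -0.15 for Scg3, -0.24 and -0.04 for Scg5, 0.40 and -0.01 for Tph1, -0.38 and -0.66 for Neurog3, and -0.16 and -0.10 for Neurod1. All of these values were negative except that of Tph1 in the low class. Each class holds 1 WT library that all genes share, so their signs are not separate evidence. The WT library of the middle class, WT 4, was the highest WT crypt library for Chga, Chgb, Scg5, Tph1 and Neurod1. The calls themselves were sensitive to the set of libraries. They were lost for all 3 genes without WT crypt library 1, 2 or 3 or without KO library 2 or 3 (adjusted p 0.0829 to 0.129), and for Syp and Scgn without KO library 4 (0.0552 and 0.0565), and without the filter on low counts the adjusted p of Syp was 0.0602, while the log2 fold changes over all 8 omissions stayed between -1.43 and -0.78. Without the WT libraries 2 and 3, which are high in mitochondrial ribosomal RNA, the adjusted p was 0.391 for each of the 3 and the log2 fold changes were -1.27, -0.72 and -1.58. With the class as a term in the fit the adjusted p was 0.209 for Syp, 0.202 for Cplx2 and 0.19 for Scgn. The share of all tested genes called, 6.96% in the main fit, fell in these fits too. It was 0.147%, 0.0219% and 0.0808% without WT library 1, 2 or 3, and 0.0145% and 0.0146% without KO library 2 or 3. Without KO library 4 it was 3.75%, without WT libraries 2 and 3 0.00715%, and with the class term 0.0149%.

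Synaptophysin and complexin are also made by neurons. The summed level of 10 genes listed as markers of enteric neurons and glia was also lower in KO-IEC crypts. The 10 genes of that list summed to 3.83 to 6.68 CPM in WT crypts and to 1.90 to 3.03 CPM in KO-IEC crypts, without overlap. In WT organoids, which are epithelial cultures, the list summed to 5.75 to 8.88 CPM (KO-IEC experiment) and 10.5 to 10.7 CPM (KO-CAG experiment). The sum is thus not a measure of neurons and glia alone. In crypts 2 of the 10 were tested, and 1 was called lower by edgeR, where 2.66% of all tested genes were called lower. Of the defining genes, the neuronal Elavl3 was at 0.0802 to 0.282 CPM in WT and 0 in all KO libraries, and the glial factor Sox10 at 0 to 0.094 CPM in WT and 0 to 0.183 CPM in KO. These values of Elavl3 and Sox10 were at or under the floor of 3 counts. Mesenchymal markers summed to 11.2 to 15.1 CPM in WT and 7.07 to 8.99 CPM in KO-IEC crypts, and 0 of the 2 tested were called. The part of these cells in the lower Syp, Cplx2 and Scgn was not tested.

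Tph1 encodes tryptophan hydroxylase 1, the rate-limiting enzyme of serotonin synthesis in enterochromaffin cells, and lies at chr7:46644641-46672537 on the minus strand. In crypts it was at 10, 10.8, 11.1 and 14.0 CPM in WT and at 10.7, 12.6, 17.6 and 13.9 CPM in KO-IEC. The ranges overlapped, KO 3 was the highest library, and the log2 fold change of 0.25 was the only positive one among the members tested in crypts (SE 0.18, 95% interval -0.16 to 0.66, edgeR adjusted p = 0.361). In KO-IEC organoids Tph1 was at 5.64 and 8.75 CPM in WT and at 7.70 and 17.1 CPM in KO, again with 1 KO library within the WT range (log2 0.78, SE 0.49, edgeR adjusted p = 0.856). In KO-CAG organoids the levels were 20.9 and 22.7 CPM in WT and 61.8 and 45.3 CPM in KO, 2.44-fold higher (log2 1.28, SE 0.16, edgeR adjusted p = 0.000259), and the KO libraries differed more from each other than for any other member in that experiment (1.37-fold).

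Neurog3 encodes the basic helix-loop-helix factor that commits secretory progenitors to the enteroendocrine fate, and lies at chr10:62133090-62134763 on the plus strand. The tables place a gene of the opposite strand over it, named 2010107G23Rik for crypts and KO-CAG organoids and Fam241b for KO-IEC organoids, with 1837, 724 and 949 counts over the libraries of these experiments. The strand setting of the counting is not given in the sources used here, so the reads assigned to Neurog3 are uncertain. In crypts Neurog3 was at 3.57, 3.39, 3.91 and 3.29 CPM in WT and at 3.59, 2.36, 2.33 and 2.02 CPM in KO-IEC. Library KO 1 was at the WT level and the other 3 KO libraries were below all WT libraries, and the log2 fold change of -0.46 (SE 0.23, 95% interval -0.98 to 0.05) did not pass the test (edgeR adjusted p = 0.192). In KO-IEC organoids the levels were 7.99 and 10.5 CPM in WT and 7.70 and 6.47 CPM in KO (log2 -0.38, SE 0.30, edgeR adjusted p = 0.856), with KO below WT without overlap. With Cplx2 and Scgn, Neurog3 made up the 3 members without overlap in that experiment, each lower in KO, as were 19.4% of all tested genes. In KO-CAG organoids Neurog3 was at 11.2 and 13.6 CPM in WT and at 21.1 and 23.2 CPM in KO, 1.80-fold higher (log2 0.85, SE 0.16, edgeR adjusted p = 0.0034).

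Neurod1, which acts after Neurog3 in differentiating enteroendocrine cells, lies at chr2:79452521-79456751 on the minus strand, where Cerkl overlaps it on the same strand with 20 counts over the crypt libraries. In crypts its levels were 4.47, 4.42, 3.11 and 4.81 CPM in WT and 4.64, 3.12, 4.34 and 4.49 CPM in KO-IEC, which overlapped almost fully (log2 -0.02, SE 0.22, 95% interval -0.51 to 0.46, edgeR adjusted p = 0.953). In KO-IEC organoids they were 2.42 and 4.51 CPM in WT and 3.19 and 5.80 CPM in KO (log2 0.38, SE 0.51, edgeR adjusted p = 0.878), with replicate 2 the higher library of both genotypes. In KO-CAG organoids they were 6.01 and 5.04 CPM in WT and 12.6 and 13.1 CPM in KO, 2.33-fold higher (log2 1.22, SE 0.21, edgeR adjusted p = 0.00165), and the genotypes did not overlap.

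**Figure D2:**
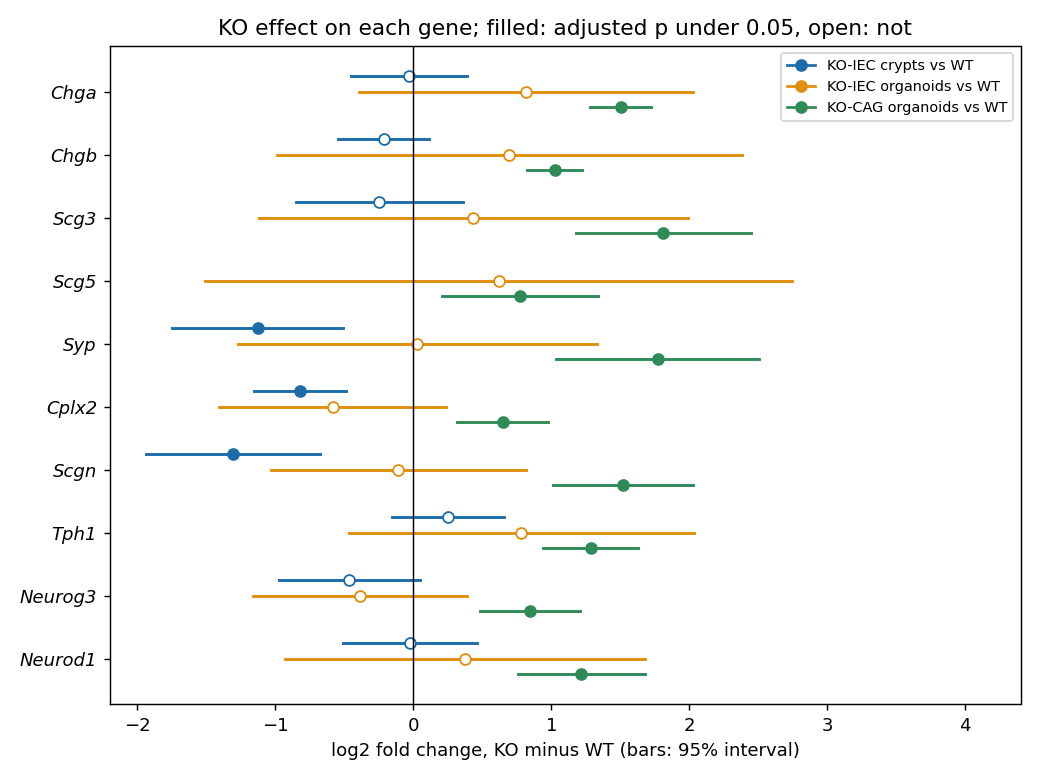
Log2 fold change of KO against WT (x axis) for the 10 genes in 3 experiments, by colour, with 95% intervals as bars and filled points where the edgeR adjusted p was under 0.05. All 10 KO-CAG points are filled and above 0, from 0.65 to 1.81. In crypts only Syp, Cplx2 and Scgn of the 9 tested genes are filled, below 0, and the KO-IEC organoid intervals all cross 0.

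Much of the difference between genotypes in KO-IEC organoids rested on KO library 2, but replicate 2 was also the higher of the WT libraries. KO library 2 was above both WT libraries for Chga, Chgb, Scg3, Scg5, Syp, Tph1 and Neurod1, and above KO library 1 by 1.82-fold for Neurod1 and by 3.62-fold for Chgb. It was also the KO library with the lower value for Cplx2 and Neurog3. Of the WT libraries, replicate 2 was the higher for every gene described, by 1.05-fold for Scg3 to 3.46-fold for Scg5. Mitochondrial ribosomal RNA was higher in replicate 2 of both genotypes. It was at 1377 and 2165 CPM in WT libraries 1 and 2, and at 1187 and 2671 CPM in KO libraries 1 and 2. The part of this shared replicate difference in the values of KO library 2 was not tested. Without KO library 1, 3 members were called higher (Chga, log2 1.34; Chgb, 1.34; Tph1, 1.25; edgeR adjusted p = 0.00706, 0.0307 and 0.0418), in a fit that called 15.8% of all genes and in which the lone KO library was assumed to vary like the WT pair. Without KO library 2, none was called and Chga, Chgb, Scg3, Scg5, Syp and Neurod1 had negative log2 fold changes, from -0.51 for Chgb to -0.01 for Chga. The summed level of goblet cell markers also differed between these KO libraries, from 1759 to 6716 CPM, against 1614 to 1886 CPM in WT. So did that of enterocyte markers (2957 to 9244, WT 3872 to 6278 CPM) and tuft cell markers (27.1 to 67.4, WT 34.3 to 35.8 CPM). Stem cell markers summed to 335 to 1466 CPM in KO and 2423 to 3588 CPM in WT (median log2 fold change -2.15), and Paneth cell markers to 1783 to 2345 and 2424 to 4042 CPM. None of these markers was called.

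**Figure D3:**
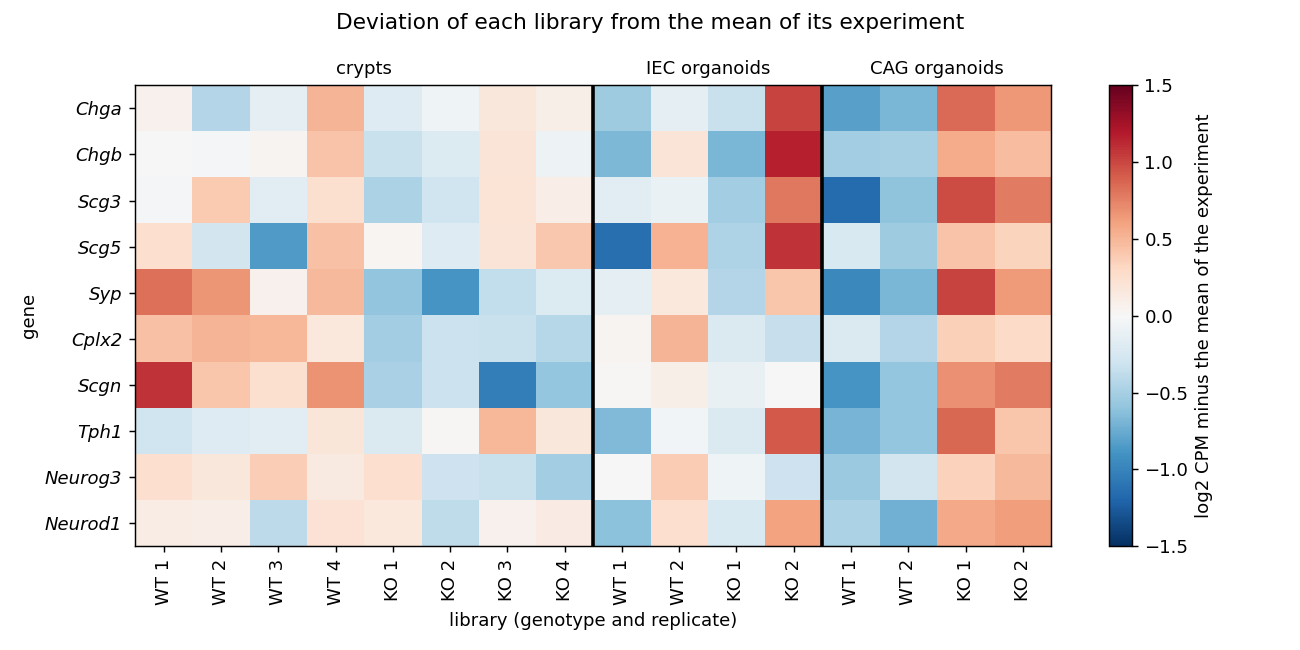
Deviation of each library (columns) from the mean of its experiment, in log2 CPM (colour scale from -1.5 to 1.5), for the 10 genes (rows). KO library 2 of the KO-IEC organoids is high for Chga, Chgb, Scg3, Scg5 and Tph1, both KO-CAG libraries are high for all 10 genes, and WT crypts are high for Syp, Cplx2 and Scgn.

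Whether the effect of the deletion differed between experiments was tested with the 16 libraries in 1 fit, which held 15585 genes. The KO effect was more positive in KO-CAG organoids than in crypts for all 10 genes, by 0.59 (Scg5) to 2.90 (Syp) on the log2 scale. The difference passed the test for 3 of 10, where 0.237% of genes passed it in that direction. These were the genes called lower in KO-IEC crypts. The crypt effect is a term of the difference, so this overlap is not separate evidence. The difference was 2.90 for Syp (SE 0.49, edgeR adjusted p = 0.0242), 1.46 for Cplx2 (SE 0.24, edgeR adjusted p = 0.0221) and 2.81 for Scgn (SE 0.39, edgeR adjusted p = 0.0103). For the other genes the differences were 1.53 for Chga, 1.23 for Chgb, 2.05 for Scg3, 0.59 for Scg5, 1.03 for Tph1, 1.30 for Neurog3 and 1.23 for Neurod1, with edgeR adjusted p between 0.0815 and 0.794. These calls rested on the small KO-CAG groups: without WT library 1, KO library 1 or KO library 2 of the KO-CAG experiment none of the 10 was called, and without its WT library 2 only 1 was. Against KO-IEC organoids the KO-CAG effect was larger for all 10 by 0.12 to 1.73, but 0 of 10 passed edgeR's test, where 0.385% of genes did, and 1 was called by DESeq2. Between KO-IEC organoids and crypts 0 of 10 passed edgeR's test, where 0.00642% of genes did, and 0 were called by DESeq2. The effect measured in KO-CAG organoids enters both of the first comparisons.

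**Figure D4:**
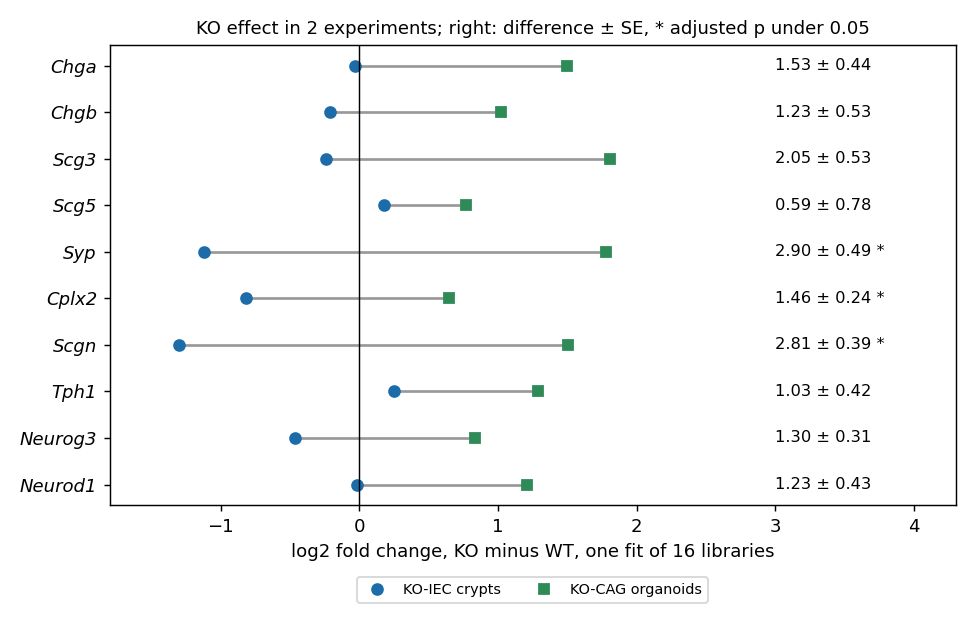
Log2 fold change of KO against WT in KO-IEC crypts (circles) and KO-CAG organoids (squares) from the fit of all 16 libraries, joined for each gene, with the difference ± SE at the right and an asterisk at an edgeR adjusted p under 0.05. Syp, Cplx2 and Scgn, marked by an asterisk, are below 0 in crypts and above 0 in KO-CAG organoids.

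Per length, Chgb had the highest level of the 10 in every group and Chga the second. In RPKM, CPM divided by the gene length in kilobases, Chgb was at 75.8 ± 12.1 in WT crypts (SD, n = 4) and Chga at 27.7 ± 7.93, while the other 8 lay between 0.449 (Scg5) and 2.12 (Scgn). In WT crypts the neighbours Scgn, Neurog3, Cplx2, Tph1 and Neurod1 overlapped in their ranges, as did Scg3, Syp and Scg5. In KO-IEC crypts Tph1 came next after Chga at 2.22 RPKM and Syp last at 0.24 RPKM, and the genes between overlapped each with the next. Neurog3 came next after Chga in all 4 organoid groups, at 5.54 and 4.23 RPKM in WT and KO of the KO-IEC experiment and at 7.39 and 13.2 RPKM in those of the KO-CAG experiment, without overlap with the next gene, and Syp was the lowest in all of them (0.31 to 1.08 RPKM). Levels are given side by side, since the experiments were prepared separately.

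Over the 16 libraries, each centred on the mean of its experiment, the 10 genes did not all vary with each other. Pearson's r with Chga was 0.93 for Tph1, 0.90 for Chgb, 0.86 for Scg3 and 0.85 for Neurod1, and lower for Scgn (0.46), Neurog3 (0.27) and Cplx2 (0.14). With Neurog3 the order was another: r was 0.76 for Cplx2 and for Scgn, 0.65 for Syp and 0.12 for Tph1. Over the 8 crypt libraries alone, Neurog3 had r of 0.67 with Cplx2, 0.68 with Scgn and -0.72 with Tph1. Over the 4 KO-CAG libraries all pairs of the 10 had r of 0.86 or more, as a split between genotypes gives for any genes that rise together. These values describe libraries that share genotype and preparation. Among 12469 genes tested in all experiments, those whose pattern was most like that of Chga over the 16 libraries were Rimbp2 (r = 0.96), Cck (0.95), Tmem54 (0.94), Ptprn (0.94) and Atp6v0d1 (0.93).

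The other genes of the enteroendocrine programme were taken from 6 lists. In crypts and in KO-IEC organoids, 0 of the tested genes of any list were called by edgeR, where 6.96% and 0.00717% of all tested genes were called. In KO-CAG organoids the peptide hormones were higher in KO: 8 of 9 tested were called higher, where 18.1% of all tested genes were, with a median log2 fold change of 1.40. Gip, the incretin of K cells, went from 111 and 131 CPM in WT to 456 and 463 CPM in KO (log2 1.92), Cck, cholecystokinin of I cells, from 66.6 and 72.6 CPM to 259 and 264 CPM (log2 1.91), and Sct, secretin, from 4.57 and 5.04 CPM to 18.9 and 16.6 CPM (log2 1.88). Gast, gastrin, had 0 counts in both WT libraries and 16 and 25 counts in the KO libraries, which is at least 6.17-fold higher against a floor of 3 counts per WT library. The median of the list was the same, 1.40, with Gast at that bound.

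Of the genes for granule assembly and hormone processing, 7 of 9 tested were called higher in KO-CAG organoids and none lower, with a median of 1.20. Among them were Ptprn, a granule membrane protein (log2 1.82, SE 0.24), Scg2, a further granin (1.74, SE 0.13), Cpe, the carboxypeptidase that trims prohormones (1.73, SE 0.10), and Pcsk1n, an inhibitor of the convertase PC1 (1.67, SE 0.32). Exocytosis genes split, in an experiment where 18.1% of all tested genes were called higher and 13.4% lower: 4 of 16 were called higher, among them Snap25 (log2 1.80), Syt13 (1.21) and Rab3c (0.95), 1 was called lower, the Rab effector Rph3al (-0.46), and 11 were not called, with a median of 0.25. Of the other enteroendocrine transcription factors, 7 of 13 were called higher and none lower, among them Fev (0.92), Myt1 (0.88) and Rfx6 (0.79), with a median of 0.66.

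Genes of serotonin cells were called in both directions in KO-CAG organoids, 4 of 7 higher and 2 lower. The vesicular monoamine transporter gene Slc18a1 (log2 1.20) and Gch1 (0.88), which supplies the cofactor of tryptophan hydroxylase, were among those higher. The receptor genes Adra2a (log2 -1.04) and Trpa1 (-0.65) were lower. Upstream of Neurog3, 1 of 8 genes of secretory commitment was called higher (Dll4, log2 0.40) and 1 lower (Hes1, -0.30), where 18.1% of all tested genes were called higher and 13.4% lower, and the median was 0.05. Atoh1, the factor that opens the secretory fate, was not called, at 19.3 to 19.6 CPM in WT and 19.7 to 21.9 CPM in KO (log2 0.09, SE 0.14, edgeR adjusted p = 0.67), and it was named after its value was seen.

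**Figure D5:**
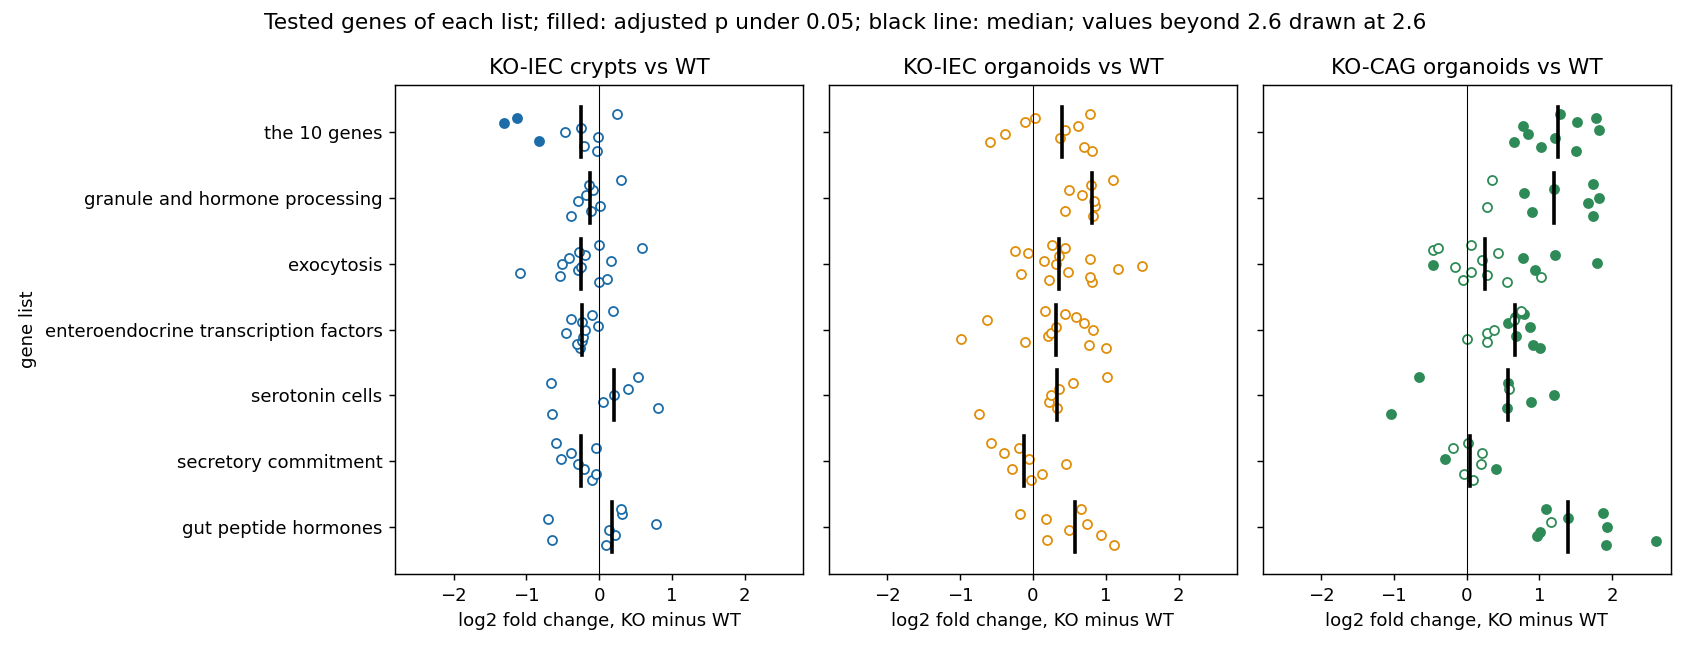
Log2 fold change of KO against WT (x axis) for each tested gene of the 10 described here and of 6 further lists (y axis), 1 panel per experiment, filled where the edgeR adjusted p was under 0.05, with a black line at each median. In the KO-CAG panel the medians of hormones (1.40), the 10 genes (1.25) and granule genes (1.20) lie furthest above 0, and secretory commitment (0.05) lies near 0.

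The markers of other cell types also moved in KO-CAG organoids. Enterocyte markers were called higher in KO for 6 of 6 (summed level 2586 to 2844 CPM in WT and 7384 to 9386 CPM in KO), Paneth cell markers for 5 of 5 (4775 to 5133 and 8038 to 8498 CPM) and goblet cell markers for 6 of 7 (4613 to 4829 and 7387 to 8046 CPM), while 1 of 5 tuft cell markers was higher and 2 of 5 stem cell markers were lower, where 18.1% of all tested genes were called higher and 13.4% lower. Neural markers summed to 10.5 to 10.7 CPM in WT and 14.2 to 17.9 CPM in KO, with 2 of 4 tested called higher and 1 lower, and Sox10 was at 0 in WT and at 0.139 to 0.384 CPM in KO. In KO-IEC crypts 2 of 5 stem cell markers were also called lower, where 2.66% of all tested genes were called lower and 6.96% in either direction. No enterocyte, Paneth, goblet or tuft cell marker was called there, although the median log2 fold change was 1.51 for the enterocyte markers (summed level 1308 to 5383 CPM in WT and 4896 to 11327 CPM in KO) and 1.12 for the tuft cell markers. The part of these shifts in the values of the 10 genes was not tested.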

How the data were processed

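RNA-seq was carried out on 16 libraries in 3 experiments. The authors deposited read counts per gene in their raw form, 1 table per experiment, without normalization. Per the submitters' processing notes, HISAT2 2.0.5 and featureCounts 1.5.0-p3 were used. The genome build, annotation and strand setting are not given in the sources used here. Positions in the tables equalled those of GENCODE M21 on GRCm38 for 95.2% of genes (crypts, KO-CAG organoids) and 98.3% (KO-IEC organoids), and for all 10 genes described. Groups and replicate numbers came from the labels.

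Each experiment was fitted by itself with edgeR 4.0.16 in R 4.3.3 (filterByExpr, TMM factors, glmQLFit and glmQLFTest, Benjamini-Hochberg adjustment), and a gene was called at an adjusted p under 0.05. SEs come from the log2 fold change and F, and intervals are 95% t intervals with the fit's degrees of freedom. CPM values are TMM-scaled. The log2 CPM of permutation tests, correlations and within-class differences carry a prior count of 2. RPKM used the deposited gene lengths. Exact permutation tests are two-sided, with a smallest p of 0.0286 for 4 against 4 and 0.333 for 2 against 2. Differences between experiments were contrasts in 1 fit of 16 libraries. DESeq2 1.42.0, other scalings, other filters, a replicate block, leaving out each library, and the class of mitochondrial ribosomal RNA (mt-Rnr1 plus mt-Rnr2) as a term were alternatives, and leaving out both WT crypt libraries with the most of that RNA was added after the data were seen. Counting error limits genes of under 20 counts per library most. The scripts were tested on simulated data.

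The 10 genes and the lists were chosen with earlier results of these data known. Named from each list were up to 4 called genes of largest absolute log2 fold change per experiment, and from all genes the 5 most correlated with Chga, and some genes of these lists are not reported here. Promoters came from RefSeq on GRCm38.p6.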

Additional observations from a re-analysis of the deposited data

Results flagged for a closer look

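The highest WT crypt library for Chgb, WT 4 at 257 CPM, stood apart from the other 3 (187 to 197 CPM) by more than the 95% limit of Dixon's test for 4 samples, which chance passes in about 1 of 20 groups. The effect of the deletion differed between KO-CAG organoids and crypts, by the test of the difference in 1 fit of all libraries, for Syp (2.90 on the log2 scale), Cplx2 (1.46) and Scgn (2.81). These 3 differences have in common that crypts and organoids, the driver of Cre, the time since deletion and the preparation all changed at once, and these cannot be told apart.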

How the results depend on the processing

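For KO-CAG organoids edgeR called 31.5% of all tested genes in the experiment's own fit and 3.06% in the fit of all 16 libraries. Of the 10 genes, 10 were called in the experiment's own fit. The count was 8 to 9 with any 1 library left out and 4 in the fit of all 16 libraries, whose shared coefficient of variation was 0.226. In crypts the main count was 3, where 6.96% of all tested genes were called. It became 0 with a term for the mitochondrial ribosomal RNA class (0.0149% of all genes) and 0 without the WT libraries high in it (0.00715%). The count ranged from 0 to 3 over the omission of single libraries, in fits that called 0.0145% to 18% of all genes. In KO-IEC organoids it ranged from 0 to 3. For the effect in KO-CAG organoids minus crypts, 3 became 6 without a filter on low counts and 6 with DESeq2, and ranged from 0 to 4 over the omission of single libraries. For KO-CAG minus KO-IEC organoids, 0 became 1 with DESeq2, and the range was 0 to 1. For KO-IEC organoids minus crypts, 0 became 2 without the filter, and the range was 0 to 1. The causes were not tested.

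By the rule used, replicate numbers did not pair the libraries: the deviations of same-numbered WT and KO libraries had correlations of -0.04, 0.19, -0.40 and 0.43 in crypts. In organoids, with 2 pairs per experiment, the correlation was 0.342 for KO-IEC and 0.0669 for KO-CAG. With a replicate block edgeR called 0 of 9 members in crypts (adjusted p 0.0938 for Syp and 0.0891 for Cplx2 and Scgn). That fit called 0.0298% of all genes. With the block 0 of 10 were called for KO-CAG organoids minus crypts. The log2 fold change of Chga in crypts was then 0.00422 and that of Syp in KO-IEC organoids -0.0183. Syp there was at -0.0388 with scaling by library size only.

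Over the omission of single libraries the sign changed for Chga (-0.16 to 0.19) and Neurod1 (-0.14 to 0.10) in crypts, and in KO-IEC organoids for Chga (-0.0133 to 1.34), Chgb (-0.51 to 1.34), Scg3 (-0.42 to 0.98), Scg5 (-0.40 to 1.74), Syp (-0.49 to 0.42) and Neurod1 (-0.11 to 0.88). The signs of all 10 genes in KO-CAG organoids, and of Syp, Cplx2 and Scgn in crypts, were kept under every alternative run.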
